A study of Mus musculus with 24 samples.

Results

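Mfsd2a, a membrane carrier of lysophosphatidylcholine, was examined in mouse liver together with 9 genes that make or remodel phosphatidylcholine: Pemt, Pcyt1a, Pcyt2, Chka, Chkb, Chpt1, Cept1, Lpcat1 and Lpcat3. Members were taken by gene name, with every gene probe on the array, which gave 10 genes with 17 probes, of 21331 genes tested. Of the 17 probes, 16 passed the filter on dim probes, and each of the 10 genes kept at least 1. Mfsd2a was listed because of its difference between genotypes under vehicle, which was the largest negative value of all genes tested in that comparison. Values of Mfsd2a that share those mice are therefore given as a description without a test. Its test is the genotype difference under the agonist, whose mice do not enter the vehicle difference. The other 9 genes share a place in phosphatidylcholine metabolism, but earlier results from all 24 mice were known when the 10 genes were listed, so no count or p-value below is independent of that choice.

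The study measured RNA from whole livers of 24 male C57Bl/6J mice on 1-colour Agilent arrays, 6 mice in each of 4 groups. The LWT genotype expresses the nuclear receptor PPARα in hepatocytes and the LKO genotype does not; the labels used here do not say how or where the gene was cut, and they give no age. By gavage, each genotype received CL316243 at 3 mg/kg, a drug that activates the beta3 adrenergic receptor (called the agonist below), or the vehicle alone, 0.5% carboxymethyl cellulose in water. Gavage was at zeitgeber time 10 and death at zeitgeber time 16, that is 6 h later and after lights off, and a standard diet was freely available to all 4 groups. The comparisons ask what the agonist did in each genotype, whether the 2 responses differed (the interaction, LKO response minus LWT response), and how the genotypes differed within each treatment. Comparisons that use the same mice, such as the agonist response in LWT and the genotype difference under vehicle, are not independent of each other.

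Phosphatidylcholine is the main phospholipid of cell membranes and of the coat of lipoproteins, and liver makes it by 2 routes. In the CDP-choline route choline is phosphorylated by the choline kinases (Chka, Chkb), activated with CTP by Pcyt1a and joined to diacylglycerol by Chpt1 or Cept1; Pcyt2 does the activating step for ethanolamine. In the other route Pemt, an enzyme known chiefly from liver, methylates phosphatidylethanolamine. Lpcat1 and Lpcat3 add a fatty acid back onto lysophosphatidylcholine, and Mfsd2a carries lysophosphatidylcholine across membranes and is best known for the uptake of docosahexaenoic acid into brain. CL316243 acts mainly on fat cells, where it triggers the release of fatty acids, and PPARα is a fatty acid receptor that drives hepatic fat oxidation genes.

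The 250 bases upstream of the gene start are shown for the 3 members that were lower in LKO than in LWT under the agonist by more than 1 log2 unit on the array. They come from RefSeq (build GRCm38.p6), 5′ to 3′ on the strand of the gene, with the hexamer AGGTCA, the core letters of many nuclear receptor sites, in capitals. Mfsd2a lies on the minus strand (window chr4:122961189-122961438), Chkb on the minus strand (chr15:89429928-89430177) and Lpcat3 on the plus strand (chr6:124662854-124663103).
Mfsd2a: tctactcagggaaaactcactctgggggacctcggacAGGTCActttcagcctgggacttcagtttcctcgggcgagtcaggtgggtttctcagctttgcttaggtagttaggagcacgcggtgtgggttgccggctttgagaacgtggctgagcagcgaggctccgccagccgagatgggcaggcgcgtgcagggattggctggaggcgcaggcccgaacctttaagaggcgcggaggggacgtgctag
Chkb: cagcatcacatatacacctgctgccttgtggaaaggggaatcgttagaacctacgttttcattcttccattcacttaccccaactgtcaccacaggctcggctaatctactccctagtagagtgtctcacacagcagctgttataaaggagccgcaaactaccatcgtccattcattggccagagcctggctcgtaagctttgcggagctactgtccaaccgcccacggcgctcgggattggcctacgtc
Lpcat3: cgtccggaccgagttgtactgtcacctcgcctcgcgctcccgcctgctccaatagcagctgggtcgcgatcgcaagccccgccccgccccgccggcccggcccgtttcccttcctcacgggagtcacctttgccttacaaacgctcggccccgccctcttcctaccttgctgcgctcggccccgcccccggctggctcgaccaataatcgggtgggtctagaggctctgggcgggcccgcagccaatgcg
The Mfsd2a window held 1 AGGTCA, starting at position -213 from the gene start, and the Chkb and Lpcat3 windows held none. The search covered both strands and 5 motifs: AGGTCA, the direct repeat of AGGTCA with any 1 base between the copies (which contains AGGTCA), the cAMP response element TGACGTCA, its shorter form TGACG (contained in TGACGTCA) and CACGTG. Of 32851 upstream windows of the same length, 14% held AGGTCA, 0.0335% the direct repeat, 1.55% TGACGTCA, 17.8% TGACG and 6.02% CACGTG. Windows were found for 9 of the 10 members, 14 windows in all, and besides Mfsd2a the matches were 1 TGACG in the Lpcat1 window and 1 in 1 of the 3 Pcyt1a windows. These matches describe the letters in the windows and are not evidence of binding.

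Each array had 26985 to 34202 probes (of 56605) above background, and no spot was saturated. Levels below are log2 signal minus the 75th percentile of the same array, so 0 is the 75th percentile, and levels of different probes are not compared with each other. One mouse, LKO with agonist replicate 3, stood apart: its median correlation with its own group was 0.97, against 0.986 to 0.993 for the other 23 mice, and it is named beside the member results that it moves most. Ppara itself was read as a check of the labels. On its brightest probe, at base 2273, it ran from 5.45 to 5.93 in LWT and from 4.81 to 5.18 in LKO under vehicle. With the agonist it ran from 5.7 to 6.42 in LWT and from 3.06 to 4.85 in LKO. Its other probe, at base 7356, ran from 4.18 to 4.69 in LWT and from 3.31 to 3.73 in LKO under vehicle. With the agonist that probe ran from 4.51 to 5.28 in LWT and from 1.81 to 3.53 in LKO. The lowest LKO values with the agonist, 3.06 and 1.81, belong to replicate 3. On both probes the genotypes did not overlap under either treatment. The difference under vehicle on the brightest probe did not pass the test across all genes (-0.68, limma, adjusted p = 0.158). That under the agonist passed (-1.91, limma, adjusted p = 3.6e-07). It is not known whether these probes lie in the removed part of the gene, so they do not settle the labels. All 7 hepatocyte markers passed the filter, and their summed log2 level lay between 11.63 and 12.02 in every mouse. The brightest markers, Alb and Serpina1c, weigh most in that sum, so it does not show that each marker held steady. Hnf4a ran from 6.92 to 7.16 in LWT under vehicle and from 7.26 to 7.5 with the agonist. Tat ran from 5.62 to 7.97 in LKO with the agonist.

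Mfsd2a was high in LWT livers, rose further with the agonist and was far lower in LKO livers under both treatments. Its 1 probe lies within an exon on chromosome 4 (array annotation build mm9, chr4:122624182-122624241, minus strand) and was well above background in all 24 mice. In LWT under vehicle the level ran from 1.7 to 4.01 (median 2.88), and in LWT with the agonist from 4.86 to 5.71 (median 5.38). In LKO under vehicle it ran from -4.85 to -2.19 (median -2.83), and in LKO with the agonist from -1.17 to 2.89 (median 0.55). Every LWT mouse with the agonist stood above every other mouse, and every LKO mouse under vehicle stood below every other mouse.

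**Figure D1:**
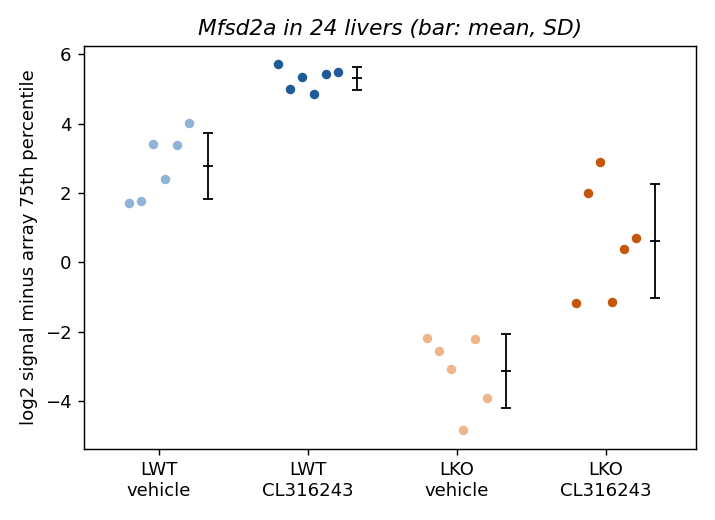
Level of Mfsd2a (log2 signal minus the 75th percentile of the array) in each of 24 livers, with the mean and SD of each group of 6. LKO mice under vehicle sit at -2.19 or below and LWT mice with CL316243 at 4.86 or above; the other groups overlap.

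From lowest to highest the order of group means was LKO vehicle, -3.14 ± 1.06 (SD, n = 6), LKO agonist, 0.61 ± 1.64, LWT vehicle, 2.78 ± 0.96, and LWT agonist, 5.3 ± 0.32. The first step was 3.75 log2 units (13.4-fold) with no overlap of mice, the middle step 2.17 (4.49-fold) with overlap, and the last step 2.53 (5.76-fold) with no overlap. LKO mice given the agonist and LWT mice given vehicle are therefore the neighbours whose ranges are not separate. The spread in the LKO agonist group was the widest: replicates 1 and 4 were at -1.17 and -1.16, replicates 5 and 6 at 0.38 and 0.71, and replicates 2 and 3 at 1.99 and 2.89.

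Under the agonist Mfsd2a was 25.9-fold lower in LKO than in LWT (log2 difference -4.69, SE 0.6, 95% interval -5.95 to -3.44, lower in 6 of 6 LKO mice; limma, adjusted p = 5.42e-06 over all genes). The two-sided exact permutation test over the 924 ways to split the 12 mice gave p = 0.00216, the smallest it can give. In this comparison Mfsd2a ranked 15th from the lowest of 21331 genes, in a background where 15.9% of genes passed the test. Within the slides, each of which held 2 mice of every group, the difference was -2.73 on slide 1, -5.39 on slide 2 and -5.96 on slide 3, and without LKO agonist replicate 3, which was on slide 1, it was -5.15 (adjusted p = 5.83e-07). In whole liver RNA, fewer cells of a type and less RNA per cell cannot be told apart.

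The remaining Mfsd2a differences share mice with the value that chose the gene and are given without a test. Their intervals do not allow for that choice and are not read as tests. The vehicle difference was -5.92 (interval -7.17 to -4.66), or 60.4-fold. The agonist response was 2.53 in LWT (1.28 to 3.78; 5.76-fold) and 3.75 in LKO (2.5 to 5; 13.4-fold), the 150th and the 39th highest of 21331 responses. The interaction was 1.22 with an interval from -0.55 to 2.99. A smaller, an equal and a larger response in LKO, in log2 units, all lie inside it. That value moved with the mice and with the background method: it was 0.76 without LKO agonist replicate 3, 0.23 with normexp background correction, and 4.48, -1.27 and 0.46 within slides 1, 2 and 3. With normexp the vehicle difference was -4.71 and the LKO response 2.69, while the LWT response was 2.47.

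Across the 24 mice the genes whose levels followed Mfsd2a most closely were Eci2 (Pearson r = 0.93) and Eci3 (0.92), enoyl-CoA isomerases of fatty acid oxidation, Ctif (0.91), a translation factor, Plin5 (0.91), a lipid droplet coat protein, and Birc7 (0.91), an inhibitor of apoptosis. The 24 mice fall into 4 groups, so these values largely restate the group means. Eci2, for example, had a log2 response of 1.28 in LWT and 0.6 in LKO and was lower in LKO by 1.3 under vehicle (-1.3) and by 1.98 under the agonist (-1.98). Plin5 rose by 2.13 and 0.96 in the same order and differed between genotypes by -2.08 and -3.25. After the group means were removed the closest genes were Zdhhc17 (r = 0.81), Gpcpd1 (0.8), Kansl1 (0.79), Tmed5 (0.78) and March6 (0.78), over the same 24 mice. That order did not hold on the authors' deposited log2 table, where these genes had ranks 17, 11, 1, 8 and 6. Among the other 9 members Chkb had the highest correlation over 24 mice (0.77), which was 0.35 after removal of the group means, and Lpcat1 had the lowest value after removal (-0.75). These correlations are descriptions over mice that share arrays and groups and carry no test.

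The choline kinases, which trap choline in the cell as phosphocholine, both rose with the agonist in both genotypes, and Chkb rose less in LKO. Chkb was read by 1 probe that spans an exon junction (mm9, chr15:89257068-89257276, minus strand). Its level in LWT ran from 1.91 to 2.4 (median 2.08) under vehicle and from 3.34 to 3.8 (median 3.61) with the agonist. LKO mice ran from 1.78 to 2.02 (median 1.88) under vehicle and from 2.24 to 2.61 (median 2.49) with the agonist. The treated and untreated mice did not overlap in either genotype, and all LKO mice with the agonist lay below all LWT mice with the agonist. The response was 1.49 in LWT (SE 0.09, 2.81-fold, adjusted p = 3.72e-11) and 0.58 in LKO (SE 0.09, 1.49-fold, adjusted p = 2.21e-05). The responses differed by -0.91 (SE 0.12, adjusted p = 4.44e-05), and within slides 1 to 3 this difference was -0.8, -1.12 and -0.81. Under the agonist LKO was lower by -1.13 (SE 0.09, adjusted p = 1.89e-09), while under vehicle the difference of -0.22 had an adjusted p of 0.432.

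RefSeq lists a read-through transcript that joins Chkb to its neighbour Cpt1b, the muscle form of carnitine palmitoyltransferase, on the same strand. Cpt1b, looked at after the Chkb values were seen, had a log2 response of 3.13 in LWT (adjusted p = 1.28e-10) and 0.7 in LKO (adjusted p = 0.00733), with an interaction of -2.43 (adjusted p = 7.2e-06). Its genotype differences were -0.07 under vehicle and -2.49 under the agonist (adjusted p = 0.997 and 3.11e-09). How much of the Chkb signal comes from the read-through transcript was not tested.

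Chka was read by 3 probes, and the brightest (mm9, chr19:3893508-3893567, plus strand) represents the gene. In LWT its level ran from -0.31 to 0.85 (median 0.08) under vehicle and from 0.78 to 2.07 (median 1.42) with the agonist, with a slight overlap. LKO mice ran from -0.16 to 1.04 (median 0.54) under vehicle and from 1.54 to 3.87 (median 1.86) with the agonist, without overlap. The response was 1.34 in LWT (SE 0.32, 2.53-fold, adjusted p = 0.00228) and 1.67 in LKO (SE 0.32, 3.19-fold, adjusted p = 0.000297). The highest value, 3.87, belongs to LKO agonist replicate 3, and without that mouse the LKO response was 1.33 (adjusted p = 0.000202). The interaction was 0.34 with an interval from -0.61 to 1.29 (adjusted p = 0.768), and it was -0.01 without that mouse. The genotype differences of 0.35 under vehicle and 0.68 under the agonist did not pass (adjusted p = 0.93 and 0.168), and the latter was 0.34 without that mouse. Of the other probes, tested among all kept probes, the one at base 692 gave 0.97 in LWT and 1.33 in LKO (adjusted p = 0.0134 and 0.00125). The junction probe at base 1128 gave 0.67 in LWT, which did not pass (adjusted p = 0.127), and 1.24 in LKO (adjusted p = 0.0056).

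The CTP-dependent enzymes moved little. Pcyt1a, the rate-setting enzyme of the CDP-choline route, ran from 3.56 to 3.83 in LWT under vehicle (median 3.78) and from 3.25 to 3.72 with the agonist (median 3.53), with overlapping ranges. It fell by 0.22 on the log2 scale in LWT (SE 0.07, adjusted p = 0.0164; within slides -0.05 to -0.4). In LKO it ran from 3.39 to 3.7 under vehicle and from 3.45 to 3.62 with the agonist, a difference of -0.02 (adjusted p = 0.879). The difference between these responses, 0.2, did not pass (adjusted p = 0.281), so the fall is not shown to be specific to LWT. Pcyt2, the ethanolamine enzyme, had means between 7.57 and 7.71 in the 4 groups on its brightest probe and passed in no comparison, with log2 differences between -0.14 and 0.09. Its other probe, at base 1168, had group means between 0.25 and 0.68 and passed in none either.

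Of the 2 enzymes that complete the CDP-choline route, Chpt1 differed between genotypes in its response and Cept1 did not pass that test. On its brightest probe (mm9, chr10:87951131-87951190, minus strand) Chpt1 ran from 2.74 to 2.96 in LWT under vehicle (median 2.78) and from 3.02 to 3.41 with the agonist (median 3.08), without overlap. LKO mice ran from 2.91 to 3.15 under vehicle (median 2.97) and from 2.21 to 3.03 with the agonist (median 2.86), with overlap. The response was 0.35 in LWT (adjusted p = 0.0256), -0.28 in LKO (adjusted p = 0.0671), and the interaction -0.63 (SE 0.17, adjusted p = 0.0301). Under the agonist LKO was below LWT by -0.44 (SE 0.12, adjusted p = 0.0136), which did not pass with those 12 mice alone in the fit (adjusted p = 0.104). The other Chpt1 probe, at base 2566, gave 0.1 in LWT, -0.32 in LKO (adjusted p = 0.526 and 0.0207) and an interaction of -0.42 that did not pass (adjusted p = 0.118). These calls lie close to the threshold. The LWT rise did not pass without LWT agonist replicate 2 or 5 (0.3 and 0.31, adjusted p = 0.0682 and 0.0634), with quantile normalization (0.3, adjusted p = 0.065), with no filter on dim probes (adjusted p = 0.0546) or with the mean of both probes (0.22, adjusted p = 0.104). The LKO value was -0.18 (adjusted p = 0.198) without LKO agonist replicate 3, the lowest mouse at 2.21. It passed without LKO agonist replicate 2, 4 or 6 (-0.34 in each case, adjusted p = 0.032, 0.031 and 0.0312), with quantile normalization (-0.32, adjusted p = 0.0466) and with the mean of both probes (-0.3, adjusted p = 0.0264). The interaction did not pass without LWT vehicle replicate 5, LWT agonist replicate 2 or 5, LKO vehicle replicate 4 or 5, or LKO agonist replicate 1 (adjusted p from 0.0514 to 0.0576), or with no filter (adjusted p = 0.0737).

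Cept1, which also makes phosphatidylethanolamine, ran from 3.95 to 4.1 in LWT under vehicle and from 4.15 to 4.32 with the agonist, without overlap. In LKO it ran from 3.84 to 4.25 and from 4.1 to 4.46, with overlap. The rises of 0.2 in LWT and 0.19 in LKO passed the test narrowly (adjusted p = 0.0355 and 0.0396), and the interaction was -0.01 (interval -0.22 to 0.21). The LWT rise did not pass without LWT vehicle replicate 1 or 4 or LWT agonist replicate 1, 4 or 5 (adjusted p from 0.0571 to 0.0771). It did not pass either with quantile normalization, normexp, the authors' deposited log2 table or no filter (adjusted p = 0.0667, 0.0571, 0.0845 and 0.0889). The LKO rise did not pass without LKO vehicle replicate 2, 3 or 4 or LKO agonist replicate 1, 2 or 4 (adjusted p from 0.0682 to 0.118). Under those 4 settings it also did not pass (adjusted p = 0.0521, 0.067, 0.106 and 0.0977), nor with the 12 LKO mice alone (0.126) or array weights (0.0552). Pemt, the methyltransferase of the other route, had means between 6.8 and 6.85 in the 4 groups on its brightest probe and between 5.2 and 5.3 on the other, and it passed in no comparison on either.

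**Figure D2:**
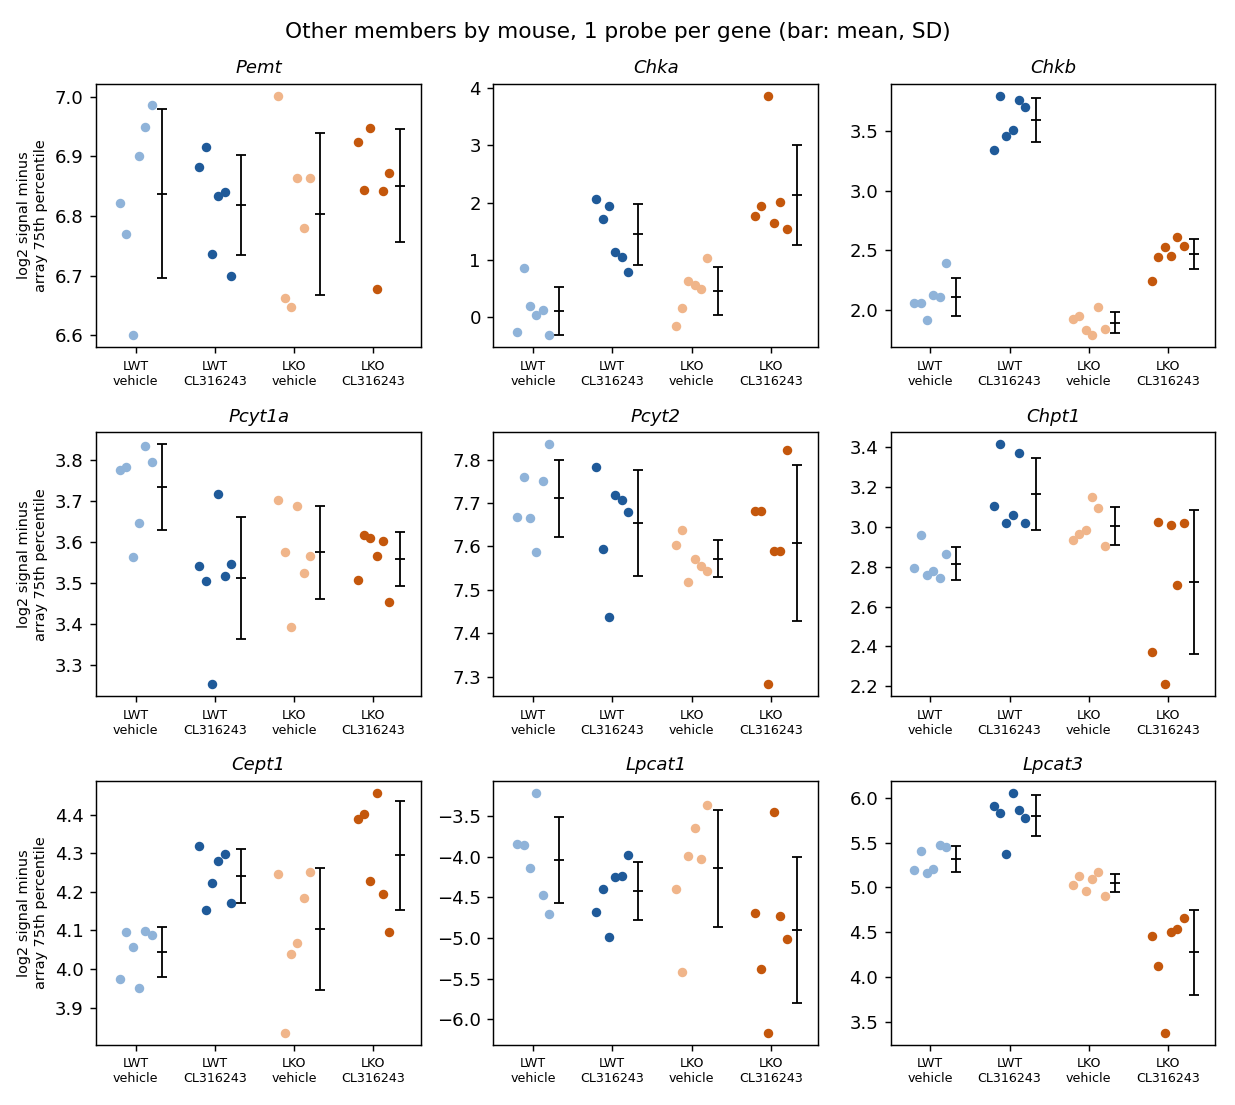
Level of the 9 other members (log2 signal minus the 75th percentile of the array; 1 probe per gene) in each of 24 livers, with the mean and SD of each group of 6. Chkb separates LWT with CL316243 (3.34 to 3.8) from LKO with CL316243 (2.24 to 2.61), Lpcat3 moves in opposite directions in the genotypes, and Pemt stays between 6.6 and 7 in every mouse.

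Lpcat3, the acyltransferase that puts polyunsaturated fatty acids into phosphatidylcholine, moved in opposite directions in the genotypes. On its brightest probe (mm9, chr6:124654029-124654088, plus strand) it ran from 5.16 to 5.47 in LWT under vehicle (median 5.31) and from 5.37 to 6.05 with the agonist (median 5.85), with overlap. In LKO it ran from 4.91 to 5.17 under vehicle (median 5.06) and from 3.37 to 4.66 with the agonist (median 4.48), without overlap. The response was 0.49 in LWT (SE 0.16, 1.4-fold, adjusted p = 0.0166) and -0.77 in LKO (SE 0.16, 1.71-fold lower, adjusted p = 0.000454), and the responses differed by -1.26 (SE 0.22, adjusted p = 0.000908). Under the agonist LKO was 2.89-fold below LWT (-1.53, SE 0.16, adjusted p = 1.76e-07), with no overlap of mice, while the vehicle difference of -0.27 did not pass (adjusted p = 0.748). The lowest value, 3.37, belongs to LKO agonist replicate 3; without that mouse the LKO response was -0.59 (adjusted p = 0.000175), the interaction -1.08 (adjusted p = 4.93e-05) and the agonist difference -1.35 (adjusted p = 4.78e-09). Within slides 1 to 3 the interaction was -1.8, -0.82 and -1.17. The other Lpcat3 probe, at base 1422, gave 0.5, -0.89, an interaction of -1.38 and an agonist difference of -1.56, each of which passed among all probes. The rise in LWT did not pass with quantile normalization (0.42, adjusted p = 0.0524) or on the authors' deposited log2 table (0.4, adjusted p = 0.0514).

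Lpcat1, best known for making the saturated phosphatidylcholine of lung surfactant, was dim. Its kept probe, at base 2997, was well above background in 6, 4, 5 and 3 of 6 mice in LWT vehicle, LWT agonist, LKO vehicle and LKO agonist, with group means from -4.91 to -4.04. Its other probe, at base 1545, was well above background in at most 2 mice of a group and was not tested. The kept probe passed in no comparison. The LKO response of -0.76 had an adjusted p of 0.0981. With 1 mouse left out it ran from -1.05 to -0.51, and it passed without LKO vehicle replicate 2 (-1.02, adjusted p = 0.0231) or LKO agonist replicate 4 (-1.05, adjusted p = 0.0134). The smallest of these values, -0.51 (adjusted p = 0.262), was without LKO agonist replicate 3, and with normexp the response was -0.09 (adjusted p = 0.536). Without LKO agonist replicate 3 the Lpcat1 interaction moved from -0.38 to -0.12 and the agonist genotype difference from -0.48 to -0.23.

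**Figure D3:**
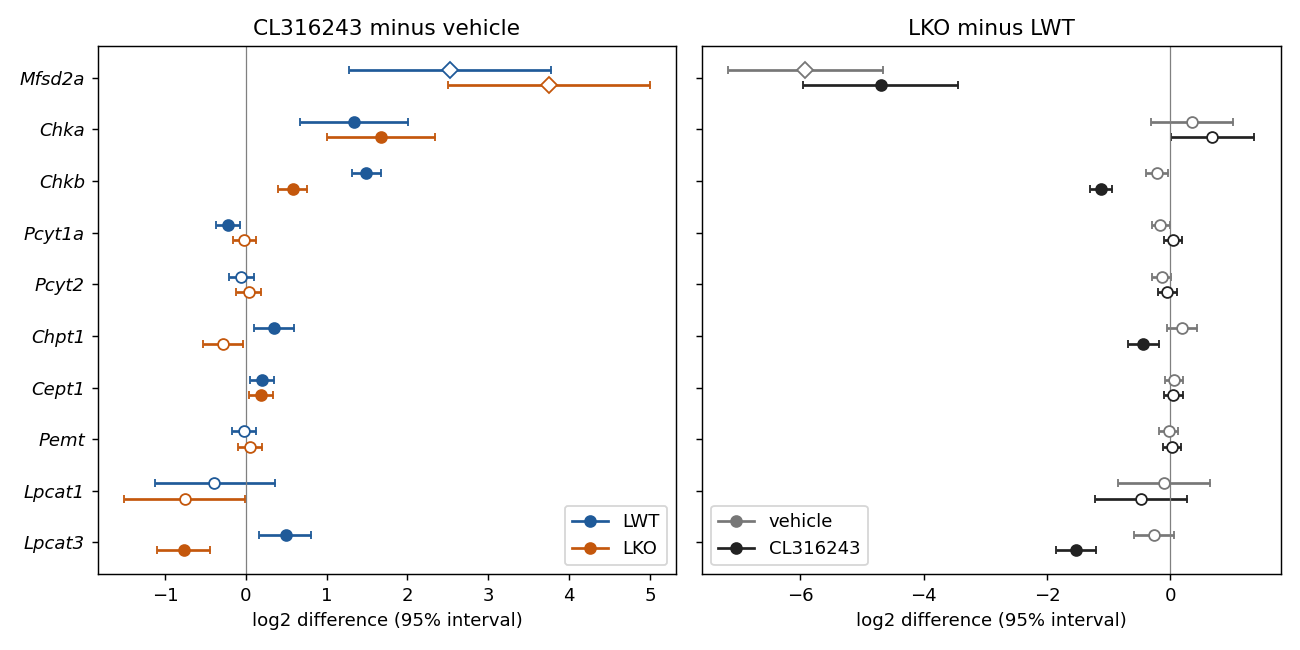
Log2 differences of the 10 members with 95% intervals: left, CL316243 minus vehicle in LWT and LKO; right, LKO minus LWT under vehicle and under CL316243. Filled circles passed the test across all genes, open circles did not, and open diamonds are Mfsd2a values given without a test. Intervals of the diamonds do not allow for the choice of Mfsd2a by its vehicle difference. Chkb, Chpt1, Lpcat3 and Mfsd2a have filled circles below 0 under CL316243 on the right.

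Of the 9 members other than Mfsd2a, 5 rose and 1 fell with the agonist in LWT, where 38.3% of all genes passed (18.9% higher, 19.4% lower). In LKO 3 rose and 1 fell, where 40.3% of all genes passed (20.9% higher, 19.4% lower), so that share, 44.4%, is near the background. For the interaction 3 of 9 passed, all lower in LKO (Chkb, Chpt1 and Lpcat3), against 5.41% of all genes (2.17% higher, 3.24% lower). The same 3 genes were lower in LKO under the agonist and 0 were higher, against 8.17% of all genes lower and 7.74% higher. Under vehicle 0 of 9 passed by limma, against 1.18% of all genes (0.398% higher, 0.778% lower); 2 had an unadjusted p below 0.05 (Chkb and Pcyt1a), and no other tool was run. The median log2 difference of the 9 was 0.2, 0.04, -0.01, -0.1 and -0.05 for the agonist in LWT, in LKO, the interaction, vehicle and agonist genotype differences, against 0.01, 0.03, 0.03, -0.02 and 0.01 over all genes. Without LKO agonist replicate 3 the 5 counts were 6, 4, 3, 0 and 3, as with it.

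The neighbouring steps of the pathway were read from 61 further genes, of which 59 were on the array and 55 passed the filter. With the agonist 18 rose and 8 fell in LWT, which is 47.3% of the 55 against 38.3% of all genes. In LKO 17 rose and 14 fell, 56.4% against 40.3%. Without LKO agonist replicate 3, 30 and 26 genes passed in LWT and LKO. The responses differed for 10 genes, 4 higher and 6 lower in LKO, 18.2% against 5.41%, and under the agonist 7 were higher and 10 lower in LKO, 30.9% against 15.9%. Under vehicle 0 of 55 passed by limma, with 15 at an unadjusted p below 0.05; leaving out LWT vehicle replicate 2, LKO vehicle replicate 1, or LKO agonist replicate 1 or 6 gave 1, and leaving out LWT vehicle replicate 3 or LKO agonist replicate 3 gave 2. The medians of the 55 were 0.08, 0, -0.08, 0 and -0.07 in the order above.

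Of the phosphatidylcholine transfer and export genes, Pctp and Abcb4 were lower in LKO than in LWT under the agonist, and Pctp responded in opposite directions. Pctp, a cytosolic phosphatidylcholine transfer protein, ran from 3.92 to 4.97 in LWT under vehicle (median 4.44) and from 5.05 to 6.14 with the agonist (median 5.89). In LKO it ran from 4.65 to 5.12 (median 4.82) and from 4.11 to 4.79 (median 4.2). It rose by 1.33 in LWT (adjusted p = 3.65e-06), where treated and untreated mice did not overlap, and fell by 0.55 in LKO (adjusted p = 0.0149), where they did. The interaction was -1.88 (SE 0.25, adjusted p = 3.17e-05), and under the agonist LKO was below LWT by -1.48 (SE 0.17, adjusted p = 1.54e-06). Abcb4, the canalicular flippase that exports phosphatidylcholine into bile, rose by 1.13 in LWT (adjusted p = 1.22e-05) and by 0.55 in LKO (adjusted p = 0.00991). Under the agonist it was lower in LKO by -1.18 (SE 0.16, adjusted p = 1.51e-05), with no overlap, but its interaction of -0.58 did not pass (adjusted p = 0.165). Under vehicle its difference of -0.6 did not pass either (adjusted p = 0.0902), although the genotypes did not overlap, and it passed without LKO agonist replicate 3 (adjusted p = 0.00939), with the 12 vehicle mice alone (0.0152) and with array weights (0.0027). Under the agonist 2 of the 6 genes of this group were lower in LKO than in LWT and 2 others were higher. Of all genes 8.17% were lower and 7.74% higher. In this group 2 of 6 genes rose and 2 fell in LWT, where 18.9% of all genes rose and 19.4% fell, and 2 rose and 3 fell in LKO, where 20.9% rose and 19.4% fell.

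Of the 4 genes of sphingomyelin synthesis and breakdown, 3 were higher in LKO than in LWT under the agonist and the other did not pass, where 7.74% of all genes were higher and 8.17% lower. Sgms2, a sphingomyelin synthase, ran from -0.36 to 0.29 in LWT under vehicle and from -2.16 to -1 with the agonist, without overlap, and from 0.08 to 0.52 and from -0.17 to 0.52 in LKO. It fell by 1.59 in LWT (adjusted p = 6.75e-08), while the LKO value of -0.24 did not pass (adjusted p = 0.225). The interaction was 1.35 (SE 0.22, adjusted p = 0.000406), and under the agonist LKO was 3.18-fold higher (1.67, adjusted p = 3.76e-08). Samd8, a ceramide phosphoethanolamine synthase, and Smpd1, the acid sphingomyelinase, had interactions of 0.56 and 0.6 (limma, adjusted p = 0.0149 and 0.00672). That of Samd8 was 0.35 with normexp. The other Smpd1 probe, at base 2229, showed no fall in LWT, with group means of -1.1 under both treatments. In LKO its means were -1.16 under vehicle and -0.95 with the agonist. Sgms1, the other sphingomyelin synthase, rose by 1.14 in LWT and 0.97 in LKO (adjusted p = 0.000634 and 0.00251). Without LKO agonist replicate 3 the LKO rise was 0.71 (adjusted p = 0.0028). The size of the Sgms1 rise depended on the probe. Group means went from -1.84 to 0.69 in LWT and from -1.54 to 0.35 in LKO at base 1998. At base 2506 they went from -1.67 to 0.4 and from -1.61 to 0.17, and at base 281 from -4.07 to -3.05 and from -3.98 to -3.3.

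Of the 19 genes listed under phospholipid hydrolysis, 9 rose and 1 fell in LWT, against 18.9% and 19.4% of all genes. In LKO 7 rose and 4 fell, against 20.9% and 19.4%. The list was drawn up by role, and enzyme activity was not measured. Pla2g6, a calcium-independent phospholipase A, rose by 0.63 in LWT and fell by 0.63 in LKO (adjusted p = 0.0109 and 0.0101), an interaction of -1.26 (adjusted p = 0.00543). With the mean of its kept probes the LKO value was -0.2 and did not pass (adjusted p = 0.46). Pla2g12b, a secreted family member, rose by 0.55 in LWT (adjusted p = 1.46e-05) with an interaction of -0.65 (adjusted p = 0.000805). Pla2g15, a lysosomal phospholipase, fell by 0.79 in LWT and by 1.11 in LKO (adjusted p = 0.000537 and 1.87e-05), and Pla2g12a was higher in LKO than in LWT under the agonist by 1.03 (adjusted p = 0.0033). Gpcpd1, which cleaves glycerophosphocholine, rose by 1.52 in LWT (adjusted p = 0.00519) and was lower in LKO under the agonist by -1.24 (adjusted p = 0.0407). That last call is not firm. It did not pass without LWT agonist replicate 1, 2, 3, 5 or 6 or LKO agonist replicate 1, 4, 5 or 6 (adjusted p from 0.0517 to 0.104). It also did not pass with slide as a block (0.0551), slide and slide row (0.0626), the 12 agonist mice alone (0.119), no filter (0.0799) or the mean of its probes (-1.08, adjusted p = 0.127). Within slides 1 to 3 the value was 0.55, -2.14 and -2.13. Without LKO agonist replicate 3, the highest mouse of its group at 3.42, the Gpcpd1 difference was -1.54 and passed (limma, adjusted p = 0.006).

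In the other groups, Mboat1, a lysophospholipid acyltransferase, rose by 2.14 in LWT and 2.7 in LKO (adjusted p = 5.49e-06 and 5.06e-07); with normexp these values were 1.26 and 2.07. It ran from -4.26 to -2.24 in LWT under vehicle and from -2.07 to -0.94 with the agonist, and from -3.15 to -1.85 and from -0.47 to 0.44 in LKO, without overlap in either. Of the methyl supply genes, Mat2a, which makes S-adenosylmethionine, rose by 1.54 in LWT and 0.94 in LKO (adjusted p = 2.19e-09 and 3.48e-06). Its interaction of -0.59 passed narrowly (adjusted p = 0.0418), and it did not pass with no filter (0.0977), with slide as a block (0.0537) or slide and slide row (0.0584), or in 18 of 24 fits with 1 mouse left out (adjusted p up to 0.0767). The exceptions were the fits without LWT vehicle replicate 6, LWT agonist replicate 3 or 4, LKO vehicle replicate 1 or 6, or LKO agonist replicate 3. Bhmt2, a homocysteine methyltransferase, fell by 0.98 in LWT and 0.83 in LKO (adjusted p = 7.5e-05 and 0.000425). Ahcy, which clears S-adenosylhomocysteine, the product of the Pemt reaction, fell by 0.9 in LKO (adjusted p = 0.000133). In LWT its value was -0.17 (adjusted p = 0.433), and the interaction of -0.73 did not pass (adjusted p = 0.0647), so a fall particular to LKO is not shown. That interaction passed with array weights (adjusted p = 0.0255) and without LWT vehicle replicate 3, LWT agonist replicate 6, LKO vehicle replicate 1 or LKO agonist replicate 6 (adjusted p from 0.0324 to 0.0459). Of 4 choline and ethanolamine carriers tested, none passed in LWT by limma (2 at an unadjusted p below 0.05) and 2 fell in LKO. Of 6 other genes of the choline and ethanolamine routes 1 rose in each genotype, and of 3 phosphatidylserine genes 1 fell in LWT and 2 in LKO. Beside these small counts, 18.9% of all genes rose and 19.4% fell in LWT, and 20.9% rose and 19.4% fell in LKO.

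**Figure D4:**
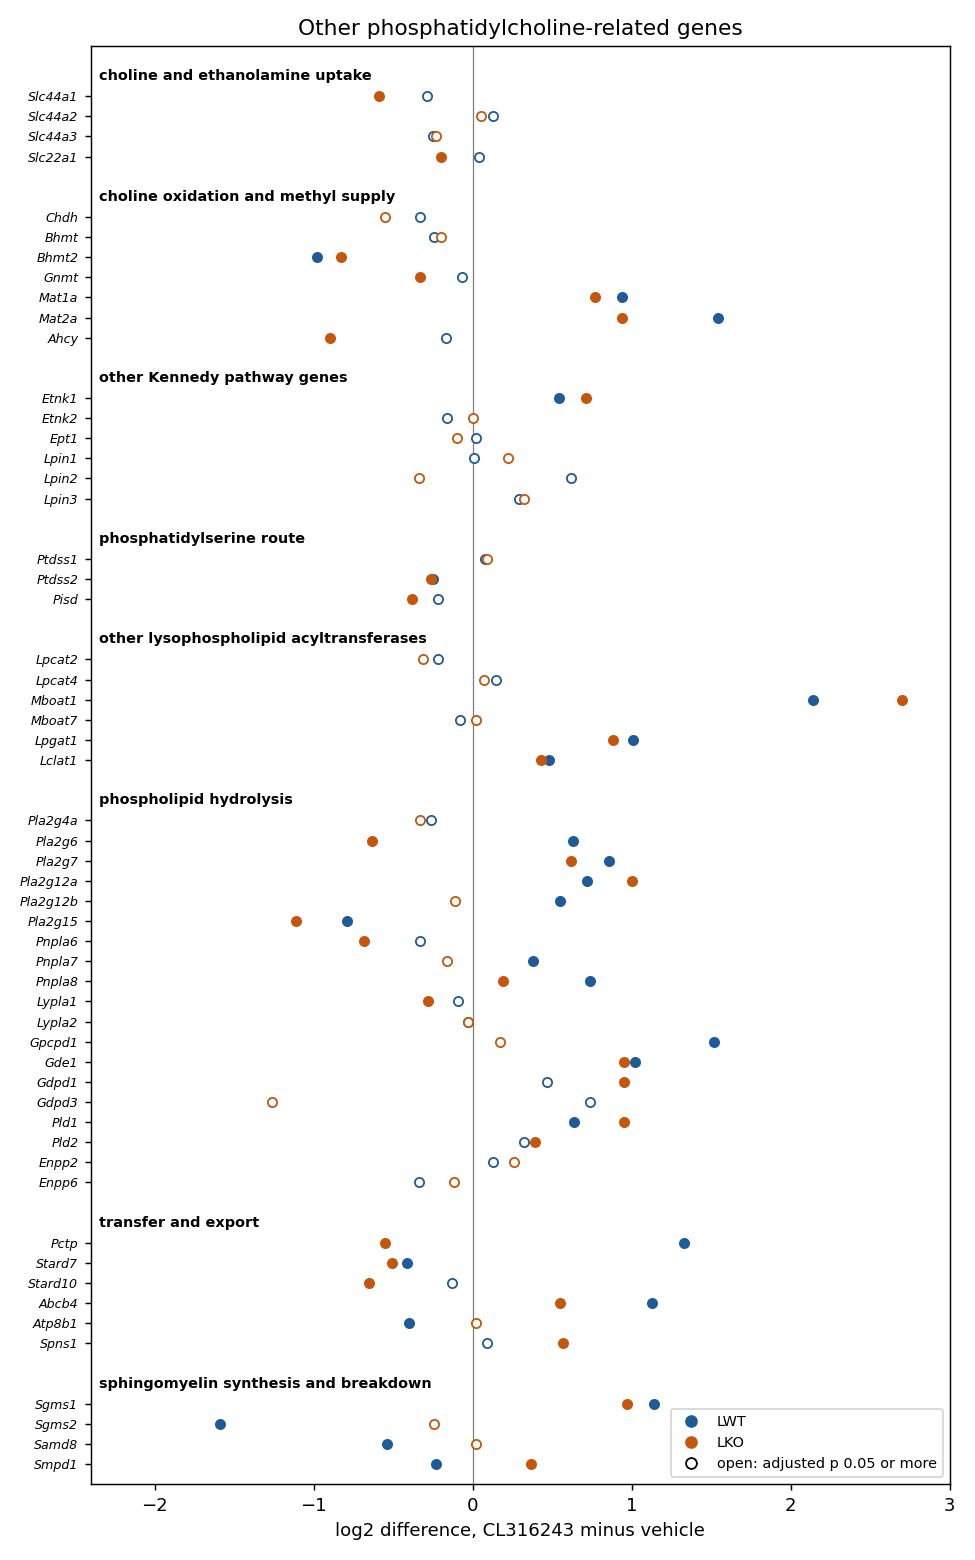
Log2 difference, CL316243 minus vehicle, of the 55 further genes tested, grouped by role, in LWT and LKO; filled points passed the test across all genes and open points did not. Pctp, Pla2g6 and Smpd1 have filled points on opposite sides of 0 in the genotypes. For Smpd1 the LWT point passed narrowly (limma, adjusted p = 0.0491) and did not pass in many alternative fits. Its other probe had group means of -1.1 in LWT under both treatments. Mboat1, at 2.14 and 2.7, lies farthest to the right.

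Markers of some other cell types moved with the agonist. The adipocyte list (4 of 5 genes passed the filter) had a summed log2 level of 1.13 to 1.73 in LWT under vehicle and 2.15 to 5.04 with the agonist, and of 1.05 to 1.4 and 2.06 to 3.21 in LKO. In the order LWT vehicle, LWT agonist, LKO vehicle and LKO agonist, Fabp4, which made up most of the sum, had medians of 0.77, 3.94, 0.83 and 2.35, and Cidea of -3.86, -1.64, -4.59 and -3.48, both higher with the agonist. Plin1 had medians of -3.63, -3.39, -3.6 and -3.6 and Lep of -0.96, -0.95, -1.02 and -0.83, while Adipoq was not well above background in enough mice. The neutrophil list (3 of 4 passed) went from 0.83 to 2.3 up to 0.91 to 3.65 in LWT. In LKO that list went from 0.96 to 1.62 up to 1.72 to 5.43. In the same group order S100a9 had medians of 0.71, 2.47, 0.37 and 2.31, and S100a8 of -1.31, 0.51, -1.61 and 0.43. Ly6g went the other way in both genotypes, with medians of -1.05, -1.45, -0.94 and -1.12, and Ngp did not pass. The cholangiocyte list (4 of 4 passed) went from -0.77 to 0.33 up to -0.11 to 1.53 in LWT. In LKO that list went from -0.61 to 0.3 up to 0.47 to 2.52. Sox9 had medians of -0.81, 0.91, -0.88 and 1.63, and Krt19 of -2.99, -3.45, -2.85 and -2.69. Krt7 had medians of -4.41, -4.46, -4.44 and -4.46, and Epcam of -4.37, -4.4, -4.49 and -3.59. The part of these cell types in the agonist responses of the members was not tested.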

How the data were processed

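The 24 livers were hybridised to 1-colour Cy3 Agilent arrays from 200 ng RNA each, on 3 slides of 8 scanned on 1 day. The deposited scanner files hold intensities from Agilent Feature Extraction 10.10.1.1, per the submitters' processing notes, background-subtracted as the processed signal per the file headers. The deposited series table holds log2 values; they matched quantile-normalized log2 median signals to within 0.01 for 99.26% of values, and limma is named in the submitters' processing notes.

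From the files, log2 of the processed signal minus each array's 75th percentile (397.4 to 577.7 intensity units) was computed over non-control spots. Outlier-flagged spots were removed and spots of a probe averaged. Probes were kept if 4 or more of the 6 arrays of any group called them well above background and each group had at least 3 values (32037 of 56605), and the brightest kept probe represents each of 21331 genes. limma 3.58.1 in R 4.3.3 was fitted with 1 mean per group over all 24 arrays, and p-values were adjusted by Benjamini-Hochberg over all genes; passing means an adjusted p below 0.05. Tests of further probes of a gene were adjusted over all kept probes. Depth has no counterpart here: the number of arrays limits the precision. The procedure was tested on simulated data. Promoter windows came from RefSeq. Figures were drawn with matplotlib 3.10.9.

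Named genes were all members and Ppara, up to 3 passing pathway genes in each direction of each comparison, and the 5 genes most like Mfsd2a by each of 2 correlations; other genes, and other comparisons of a named gene, are given for context. The members and lists were chosen with earlier results of these data known. Alternatives were other normalizations, background corrections, filters, blocks, weights, probe rules, the deposited table, each mouse left out and each slide alone.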

Additional observations from a re-analysis of the deposited data

Results flagged for a closer look

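In 5 of 64 combinations of probe and group, 1 mouse of 6 lay far from the other 5, by Dixon's criterion on the gap over the range; about 1 group in 20 would do so by chance. In 4 of them the mouse was LKO with CL316243 replicate 3. It was highest for Chka at 3.87 on the probe at base 1765 and at 0.87 on the probe at base 692, lowest for Lpcat3 at 1.67 on the probe at base 1422, and lowest for Pcyt2 at -0.83 on the probe at base 1168. The fifth was LKO with CL316243 replicate 4, lowest for Pemt at 4.99 on the probe at base 596.

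The response to CL316243 differed between genotypes by the interaction test (limma, adjusted over all genes) for 3 of the 9 members other than Mfsd2a. Of the 55 pathway genes tested, 4 passed higher and 6 lower in LKO, 18.2% against 5.41% of all genes. Only the 7 of these that are named in the text are listed here, and naming was limited to passing genes. The LKO response minus the LWT response was -0.91 for Chkb, -0.63 for Chpt1 and -1.26 for Lpcat3. Among the 7 named pathway genes it was -1.88 for Pctp, -1.26 for Pla2g6, -0.65 for Pla2g12b and -0.59 for Mat2a. It was 1.35 for Sgms2, 0.6 for Smpd1 and 0.56 for Samd8. The Smpd1 value is from its brightest probe, and its other probe showed no fall in LWT.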

How the results depend on the processing

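Under 12 processing alternatives the Mfsd2a difference under CL316243 stayed between -4.86 and -4.48 and passed in each. The alternative with the compared groups alone was not run for the interaction, which uses all 4 groups. Within slides the Mfsd2a difference was -2.73 on slide 1 and -5.96 on slide 3. The number of the 9 other members passing in LWT was 3 with quantile normalization against 6. With 1 mouse left out in turn the counts ran from 4 to 6 in LWT, 3 to 5 in LKO, 2 to 3 for the interaction, 0 to 0 under vehicle and 3 to 3 under CL316243. The pathway list under vehicle had 1 gene passing with quantile normalization against 0, and 0 to 2 with 1 mouse left out. Within slide 1 the Gpcpd1 difference under CL316243 turned to 0.55 and the Pla2g12a response in LWT to -0.3. The cause of these changes was not tested.

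The labels' replicate numbers were not shown to pair the mice. Mean correlations of same-numbered deviations ran from -0.18 to 0.42 and no comparison had all 6 pairs above 0.1. Mice with different numbers were not set beside these, so the check cannot exclude pairing. With the replicate number as a block, 5, 4, 3, 0 and 3 of the 9 members passed, and 1 pathway gene, Abcb4, passed under vehicle (adjusted p = 0.0261). With it the Cept1 rises did not pass (0.0542 in LWT, 0.0595 in LKO), the Chpt1 fall in LKO (0.0492) and the Ahcy interaction (0.0418) passed, and Smpd1 in LWT was at 0.05. For the pathway list this block and the leave-one-out counts were chosen after seeing the data. Over all genes, the agonist genotype difference had 2203 calls with those 12 mice alone against 3393. The interaction had 664 with no filter and 2158 with array weights against 1153, and the vehicle difference 167 and 635 against 251. On the deposited log2 table Eci2 and Eci3 kept ranks 1 and 2 among genes most like Mfsd2a, Plin5 rank 4 and Ctif rank 5, and Birc7 had rank 26. The dim Lpcat1 probes limit what can be said of that gene.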
